A study of Mus musculus with 15 samples.

Results

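The 50 genes described here encode proteins of the G2 and M phases of the cell cycle. They were chosen by name, not by a threshold on measured values, and all 50 matched 1 gene each among the 54838 genes of the deposited tables. Their levels were followed through 15 mouse RNA sequencing libraries in 5 groups of 3. 4T1, a mammary carcinoma line derived from a BALB/c mouse, was sequenced from culture in serum-supplemented DMEM (4T1 in vitro) and after recovery from BALB/c lungs on day 7 after injection into the tail vein (4T1 in vivo). Lung epithelial cells, titled by the surface protein EpCAM, were sorted on day 7 from lungs injected with 800000 4T1 cells that label the cells around them, and each epithelial replicate pooled 5 lungs. The labels divide these cells into distal lung and metastatic niche, both of treatment "control", and a further niche group of treatment "shSox9". The labels do not say which cells received a hairpin against Sox9. The strain of the hosts is given for the 4T1 recovery only, and age and sex are not given.

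At the end of G2 the kinase encoded by Cdk1, bound to cyclin A or cyclin B, drives cells into mitosis. Chromosomes then condense, a bipolar spindle forms and attaches to kinetochores, and a checkpoint holds the anaphase-promoting complex back until attachment is complete. Transcription of these genes is low in resting cells, where DREAM complexes repress them, and peaks in G2 through the MuvB core with Mybl2 and Foxm1. The healthy alveolar epithelium divides rarely, whereas a carcinoma line in culture divides continuously.

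Libraries held 15907316 to 30421705 expected counts, and 3 counts equalled 0.0986 to 0.189 CPM, the count scaled by the library's total. Sox9, the gene named by the label, stood at 64.9, 58.8 and 33.0 CPM in the 3 niche libraries and at 91.1, 62.3 and 36.8 CPM in the 3 labelled shSox9, against 4.37 to 5.59 CPM in distal and 286 to 412 CPM in 4T1 in vivo. It was thus not lower in the libraries under its label (log2 fold change 0.26, SE 0.27, edgeR adjusted p = 0.548), and "labelled shSox9" below repeats the title only. By the estimate below these libraries also hold 4T1 RNA, and 4T1 cells express Sox9. Sox9 is itself 1 of the 43 genes of that estimate. The test therefore cannot be read as Sox9 of the epithelial cells alone, and a knockdown in them was not tested. The markers of alveolar type 2 (AT2) cells, 7 genes, summed to 195111 to 240566 CPM in distal libraries, to 9373 to 12325 CPM in niche libraries and to 34262 to 58021.5 CPM in those labelled shSox9. The epithelial markers Epcam, Cdh1, Krt8 and Krt18 together came to 3366 to 3626 CPM in 4T1 in vitro and 3742 to 4471 CPM in 4T1 in vivo. They came to 790 to 881.5 CPM in distal, 624 to 1378 CPM in niche and 813 to 1433 CPM in libraries labelled shSox9. The 4T1 cells thus held more of these transcripts than any epithelial library.

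The promoters of these genes are shown first, because their shared letters were not used to choose them. RefSeq (build GRCm38.p6) gave a window of 300 bases, from 250 before to 50 after the transcription start, for 40 of the 50. Each was searched on both strands for CCAAT, the letters bound by NF-Y, and for the cell cycle genes homology region (CHR) that MuvB complexes bind. Its letters were TTTGAA, with a second accepted form written TTCGAA. The last base of CCAAT may also be the first base of a TTTGAA that follows it, and such overlaps were allowed. The second CHR form is a palindrome, so its matches on both strands are the same match. The 6 stretches below were chosen as examples with printed matches for a cyclin, its kinase, a topoisomerase, a mitotic kinase, a kinetochore subunit and an activator of the anaphase-promoting complex. Each has 130 bases, lies on the minus strand and is written 5′ to 3′, with CCAAT and CHR letters in capitals. A match on the opposite strand reads ATTGG for the first motif, and for the second it reads TTCAAA.

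Ccnb2: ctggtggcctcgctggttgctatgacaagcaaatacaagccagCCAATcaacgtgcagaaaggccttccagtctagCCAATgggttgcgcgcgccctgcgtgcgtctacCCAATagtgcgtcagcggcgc

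Cdk1: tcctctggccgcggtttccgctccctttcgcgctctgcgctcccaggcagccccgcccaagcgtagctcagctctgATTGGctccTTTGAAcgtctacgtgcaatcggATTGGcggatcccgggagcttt

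Top2a: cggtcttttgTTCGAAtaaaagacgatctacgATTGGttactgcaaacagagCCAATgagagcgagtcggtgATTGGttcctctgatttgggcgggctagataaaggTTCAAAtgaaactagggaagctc

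Aurka: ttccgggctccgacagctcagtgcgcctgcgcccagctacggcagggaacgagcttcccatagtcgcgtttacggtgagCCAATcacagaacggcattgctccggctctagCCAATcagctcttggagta

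Spc25: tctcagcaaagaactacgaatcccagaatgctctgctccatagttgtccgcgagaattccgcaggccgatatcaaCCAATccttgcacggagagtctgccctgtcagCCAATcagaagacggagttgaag

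Cdc20: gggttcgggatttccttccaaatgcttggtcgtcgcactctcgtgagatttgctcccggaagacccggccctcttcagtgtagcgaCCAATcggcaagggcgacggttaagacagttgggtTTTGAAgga

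In coordinates of GRCm38.p6, all on the minus strand, the Ccnb2 stretch is chr9:70421555-70421684, Cdk1 chr10:69352939-69353068, Top2a chr11:99024190-99024319, Aurka chr2:172370571-172370700, Spc25 chr2:69206214-69206343 and Cdc20 chr4:118437353-118437482. The Ccnb2 stretch shows 3 CCAAT boxes. The TTTGAA matches of Ccnb2 lie outside it, starting 167 bases before and 5 bases after the transcription start. In Spc25 and Aurka likewise the pair of CCAAT boxes is printed and the TTTGAA starts 25 and 33 bases after the start. Cdk1 holds TTTGAA between 2 reversed boxes and again 15 bases before the transcription start, beyond its printed end. Cdc20 holds TTTGAA 18 bases before the transcription start. The last printed base lies 1 base before the RefSeq start in Ccnb2, Top2a, Aurka and Spc25, but 10 bases before it in Cdc20 and 27 in Cdk1, whose GENCODE genes start further upstream.

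Of the 40 promoters, 30 (75%) held a CHR form, against 21.7% of 27025 genes with a window of the same length and 20.2% of 17492 protein-coding ones. CCAAT was found in 29 (72.5%), against 41.1% of all and 42.3% of protein-coding genes. Both occurred together in 26 (65%), against 8.61% and 8.22%. A pair of CCAAT boxes whose first bases lay 31 to 34 bases apart occurred in 10 of 40 (25%), against 1.37% of all and 1.69% of protein-coding genes. This spacing was chosen after the positions had been seen. Of 68 CCAAT matches 48 lay from 110 bases to 1 base before the start, and of 41 matches to the CHR forms 27 lay between 60 bases before and 40 bases after it. Positions were not counted over all genes. The windows of the 40 genes had 58.3% G and C, against 53.8% over all genes and 56.2% over protein-coding ones. A match describes letters in the window, and none was tested for binding here.

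**Figure D1:**
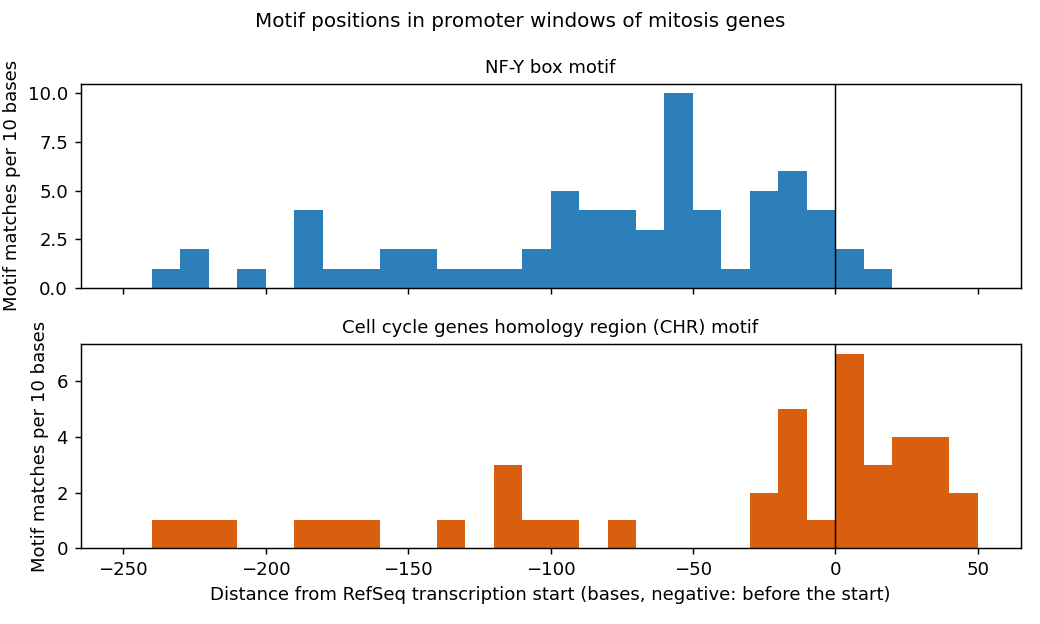
Positions of CCAAT (NF-Y box, top) and of the CHR forms (bottom) in the 40 promoter windows, as matches per 10 bases against the distance in bases from the RefSeq transcription start. CCAAT matches gather before the start, 48 of 68 within 110 bases of it, and CHR matches gather around it. Positions over all genes were not counted.

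All 50 genes had counts in every one of the 15 libraries and passed the filter on low counts in both fits. Together they took 0.911% to 0.975% of all counts in 4T1 in vitro, 0.811% to 0.884% in 4T1 in vivo and 0.0361% to 0.0558% in distal epithelium. The niche libraries held 0.254%, 0.262% and 0.181%, and those labelled shSox9 held 0.20%, 0.196% and 0.132%. The 4T1, niche and distal groups therefore did not overlap one another in this share, and niche replicate 3 lay below replicates 1 and 2 of the libraries labelled shSox9. In bulk libraries fewer dividing cells and less RNA per dividing cell cannot be told apart.

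Levels between genes were compared as deposited TPM, which are scaled for transcript length. The highest mean over all 15 libraries belonged to Cenpa, the centromeric variant of histone H3. Cenpa stood at 562, 564 and 580.3 TPM in vitro, 541, 553 and 529 in vivo, 14.6, 21.5 and 21.01 in distal, 179, 179.5 and 131 in niche and 144, 156 and 103 in libraries labelled shSox9. Pttg1, the securin that inhibits separase until anaphase, came next and led in all 3 epithelial groups, at 23.01, 27.7 and 30.8 TPM in distal, 208, 224 and 162 in niche and 159, 183 and 152 in libraries labelled shSox9. In 4T1 it stood at 413, 398 and 382 in vitro and 485, 518 and 451 in vivo. Birc5 (survivin), which targets the chromosomal passenger complex to centromeres, led in vitro with 556, 585 and 600.5 TPM and followed Cenpa and Pttg1 in vivo with 430.3, 440.4 and 446. Cenpa and Birc5 in vitro did not differ beyond their spread, with means of 569 ± 9.91 and 580.2 ± 22.8 TPM (SD, n = 3).

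At the other end, Kif18b, a kinesin that shortens astral microtubules, was lowest of the 50 in each of the 5 groups. It stood at 12.9, 13.5 and 11.2 TPM in vitro, 6.71, 9.11 and 6.18 in vivo, 0.04, 0.34 and 0.23 in distal and 2.01, 2.43 and 2.34 in niche. Mki67, the coat protein of mitotic chromosomes used as a proliferation marker, was of low rank, with 35.9, 33.9 and 29.02 TPM in vitro, 35.1, 33.1 and 28.8 in vivo, 2.19, 2.28 and 3.47 in distal, 13.8, 15.4 and 10.9 in niche and 13.01, 11.6 and 6.67 in libraries labelled shSox9. The niche libraries thus lay between distal and 4T1 for Mki67 without overlap with either. The transcription factors of the program were low as well. Foxm1 had 18.3 ± 1.55 TPM in vitro, 1.06 ± 0.0917 in distal and 6.49 ± 0.902 in niche (mean, SD, n = 3).

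The order of the 50 genes was much alike in all groups. Across genes, Pearson's r of log2(mean TPM + 0.5) was 0.98 (Spearman's rho 0.98) between 4T1 in vitro and in vivo and 0.98 (rho 0.98) between 4T1 in vivo and niche. It was 0.91 (rho 0.89) between 4T1 in vivo and distal, and 0.93 (rho 0.91) between distal and niche. The points are the 50 genes, which are not independent replicates and share their libraries. Genes off this order included Anln, which scaffolds the contractile ring and ranked 8 in both 4T1 groups, 17 in niche and 27 in distal. Kif15, a spindle kinesin, ranked 42 in vitro and 15 in distal, and Incenp, the scaffold of the passenger complex, ranked 37 in vitro and 19 in distal.

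**Figure D2:**
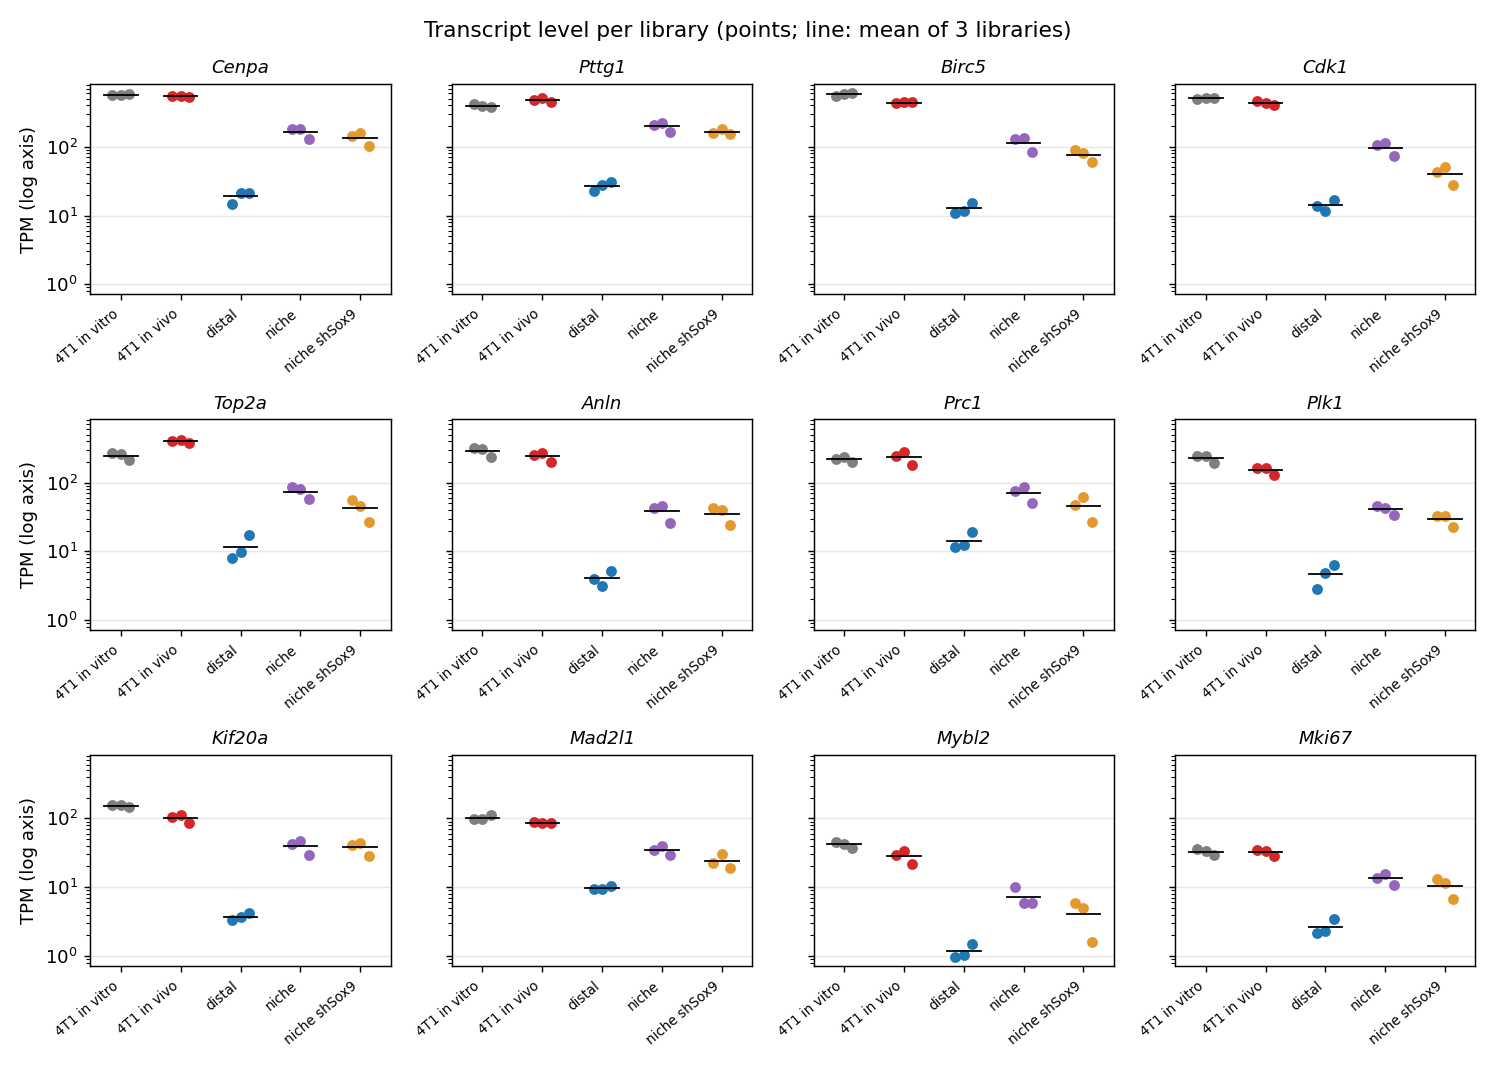
Deposited TPM (log axis) of 12 mitosis genes in each of the 15 libraries (points) by group, with the mean of 3 libraries as a line. Levels fall from 4T1 through niche to distal in each panel, as for Mki67 at 28.8 to 35.9 TPM in 4T1, 10.9 to 15.4 in niche and 2.19 to 3.47 in distal.

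The first comparison set 4T1 cells recovered from lung against 4T1 cells in culture. Of the 50 genes 29 fell and 3 rose in vivo by edgeR at an adjusted p below 0.05, where 24% of the 14022 genes tested were lower and 27% higher. Their median log2 fold change was -0.29, against 0.01 over all genes tested, and the range was -0.81 to 0.30, so most differences were smaller than 1.5-fold. The libraries of both groups did not overlap for 24 of the genes that fell and for all 3 that rose, where 21.8% and 37.7% of all genes had no overlap in these directions. By role, the median log2 fold change was lowest for the 4 mitotic kinases (-0.58) and the 4 checkpoint genes (-0.47) and highest for the 7 centromere and kinetochore genes (0.056).

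Aurka (chromosome 2, 172356190 to 172370535, GRCm38, protein coding), the Aurora kinase of centrosomes, was measured at 219, 218 and 225 CPM in vitro and 137, 131 and 139 in vivo. All 3 in vivo values lay below the lowest culture, and the fitted fall was 1.76-fold (edgeR log2 fold change -0.81, SE 0.08, adjusted p = 4.32e-05). Plk1 (chromosome 7, 122159439 to 122169873), the Polo-like kinase that triggers mitotic entry and centrosome maturation, went from 329.8, 331 and 283 to 239, 231 and 193 CPM (edgeR log2 fold change -0.63, SE 0.10, adjusted p = 0.000948), also without overlap. Nek2, which separates centrosomes, fell by 0.54 on the log2 scale, and Melk, a kinase of less settled mitotic role, was not called (-0.055, SE 0.1). The kinases thus gave 3 falls of 4.

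Cdk1 (chromosome 10, 69335146 to 69352938) stood at 284, 297 and 331 CPM in vitro and 274, 262 and 253 in vivo (edgeR log2 fold change -0.33, SE 0.09, adjusted p = 0.0115). Ccnb1 (chromosome 13, 100778650 to 100786570), cyclin B1, went from 484, 468 and 489 to 376, 355 and 324 CPM (edgeR log2 fold change -0.57, SE 0.08, adjusted p = 0.000427). Every in vivo value of both genes lay below every culture value. Ccna2, cyclin A2, fell by 0.37 on the log2 scale. The other cyclin B gene, Ccnb2, was not called (-0.16, SE 0.08), nor were Cdc25c, the phosphatase that activates Cdk1 (0.12, SE 0.12), and Cdca3, a trigger of mitotic entry (-0.0078, SE 0.09).

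Of the transcription factors, Mybl2 (chromosome 2, 163054687 to 163084688) fell from 91.6, 92.4 and 83.6 CPM to 59.8, 68.1 and 55.2 CPM (edgeR log2 fold change -0.67, SE 0.10, adjusted p = 0.00048), with no overlap. Foxm1 (chromosome 6, 128362967 to 128376146) was measured at 45.9, 52.7 and 57.8 CPM in vitro and 47.9, 47.3 and 52.7 in vivo, its groups overlapped, and it was not called (edgeR log2 fold change -0.20, SE 0.11, adjusted p = 0.169).

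All 4 checkpoint genes fell. Bub1b, which encodes the checkpoint kinase-like protein BubR1, went from 158, 147 and 137 to 104, 101 and 98.6 CPM (edgeR log2 fold change -0.66, SE 0.09, adjusted p = 0.000228). Bub1 and Ttk, the kinases that start checkpoint signalling at kinetochores, fell by 0.52 and 0.41 on the log2 scale. Mad2l1, which sequesters Cdc20, fell by 0.29, from 108, 107 and 132 to 104, 98.8 and 106 CPM (edgeR adjusted p = 0.0372). In the passenger complex 3 of 4 genes fell. Birc5 went from 319, 335 and 371 to 269.7, 272 and 291 CPM (edgeR log2 fold change -0.41, SE 0.09, adjusted p = 0.00396), Cdca8 (borealin) fell by 0.39 and the kinase gene Aurkb by 0.26 on the log2 scale. Incenp had a log2 fold change of -0.028 (SE 0.087) and was not called.

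At the centromere and kinetochore 1 of 7 genes passed the test. Nuf2, a subunit of the microtubule-binding Ndc80 complex, fell by 0.25 on the log2 scale, while its partners Ndc80, Spc24 and Spc25 had 0.0024 (SE 0.10), 0.077 (SE 0.085) and 0.090 (SE 0.10). Cenpa was measured at 367, 372 and 394 CPM in vitro and 410.2, 437 and 429.6 in vivo. Its plain CPM did not overlap, being higher in vivo, but the fitted difference after TMM scaling was 0.056 (SE 0.079, edgeR adjusted p = 0.579). Cenpe, the kinetochore kinesin CENP-E, had 0.12 (SE 0.11), and Cenpf, a large protein of the outer kinetochore, had -0.030 (SE 0.097).

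Of the 9 kinesins 7 fell. Kif20a, the kinesin that carries the passenger complex to the midzone, went from 357, 359 and 355 to 255, 265 and 218 CPM (edgeR log2 fold change -0.65, SE 0.09, adjusted p = 0.000299). Kif18b, Kif2c, a microtubule depolymerase, and Kif23, the centralspindlin motor, fell by 0.60, 0.51 and 0.46 on the log2 scale. Kif14, Kif11, the motor that pushes spindle poles apart, and Kif22 fell by 0.38, 0.33 and 0.25. Kif4 (-0.21, SE 0.14) and Kif15 (0.075, SE 0.12) were not called. Among spindle assembly genes Hmmr, Tpx2, the activator of Aurora A, and Dlgap5 fell by 0.53, 0.44 and 0.31, and Prc1, which bundles midzone microtubules, was not called. Prc1 stood at 315, 311 and 278 CPM in vitro and 294, 324 and 231 in vivo, with overlap (edgeR log2 fold change -0.21, SE 0.12, adjusted p = 0.168). Of the cytokinesis genes Ect2, the exchange factor for RhoA, fell by 0.55 and Anln by 0.41, from 831, 799 and 674 to 646, 698 and 542 CPM, whereas Racgap1 was not called (-0.12, SE 0.087).

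The 3 genes that rose came from different roles. Top2a (chromosome 11, 98992943 to 99024189), which untangles sister DNA, went from 645, 608 and 508 CPM to 791, 769 and 747 CPM (edgeR log2 fold change 0.27, SE 0.10, adjusted p = 0.0448). Pttg1 (chromosome 11, 43420250 to 43426251) went from 172, 166 and 171 to 219, 229 and 214 CPM (edgeR log2 fold change 0.26, SE 0.07, adjusted p = 0.0164). Nusap1, which crosslinks spindle microtubules, went from 105, 95.6 and 96.4 to 141, 139.9 and 116 CPM (edgeR log2 fold change 0.30, SE 0.10, adjusted p = 0.0242). All 3 had no overlap, yet none kept its call without in vitro replicate 2, in vivo replicate 1 or in vivo replicate 2, and only Pttg1 did without in vitro replicate 3. Mki67 (chromosome 7, 135689784 to 135716361) was measured at 234, 216 and 203 CPM in vitro and 242, 224 and 207 in vivo, with overlap and no call (edgeR log2 fold change -0.073, SE 0.09, adjusted p = 0.525). Ube2c, the ubiquitin-conjugating enzyme of the anaphase-promoting complex, fell by 0.38, and Cdc20, the activator of that complex, was not called (-0.17, SE 0.079, edgeR adjusted p = 0.104). Cdca2, which recruits protein phosphatase 1 to anaphase chromatin, fell by 0.30.

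Among the falls, 24 kept their call whichever of the 6 libraries was left out. The other 5, Aurkb, Cdca2, Kif22, Mad2l1 and Nuf2, lost it without 1 or more of them: all but Mad2l1 without in vitro replicate 1 or 2, Mad2l1 without in vitro replicate 3, all 5 without in vivo replicate 1, Kif22, Mad2l1 and Nuf2 without in vivo replicate 2, and Aurkb, Cdca2 and Kif22 without in vivo replicate 3. The number of falls was 24 to 29 under these omissions, and that of rises 0 to 2. It was 17 falls with limma on log2(TPM + 0.5), and 13 falls and 0 rises when all 15 libraries shared a fit. Separate cultures or animals are not stated for the 4T1 replicates, and these p-values measure the spread between libraries, which may be technical.

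Markers of other cells moved with this comparison. Summed levels of 5 pan-leukocyte markers were 0.723 to 1.28 CPM in vitro, with Laptm5 at 0, and 17.7 to 71.3 CPM in vivo, and all 5 rose. Of 6 macrophage markers, with Marco, C1qa and C1qb at 0 in vitro, 4 of the 5 tested rose, from a sum of 1.94 to 2.45 CPM to 7.33 to 28.8 CPM. The 7 AT2 markers summed to 69.4 to 86.9 CPM in vitro and 141 to 183 CPM in vivo, and 4 of the 6 tested rose. Endothelial markers, with Kdr and Cldn5 at 0 in vitro, rose in 5 of 5, from 0.652 to 0.756 CPM to 10.4 to 14.03 CPM. Their part in the falls of the mitosis genes was not tested.

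**Figure D3:**
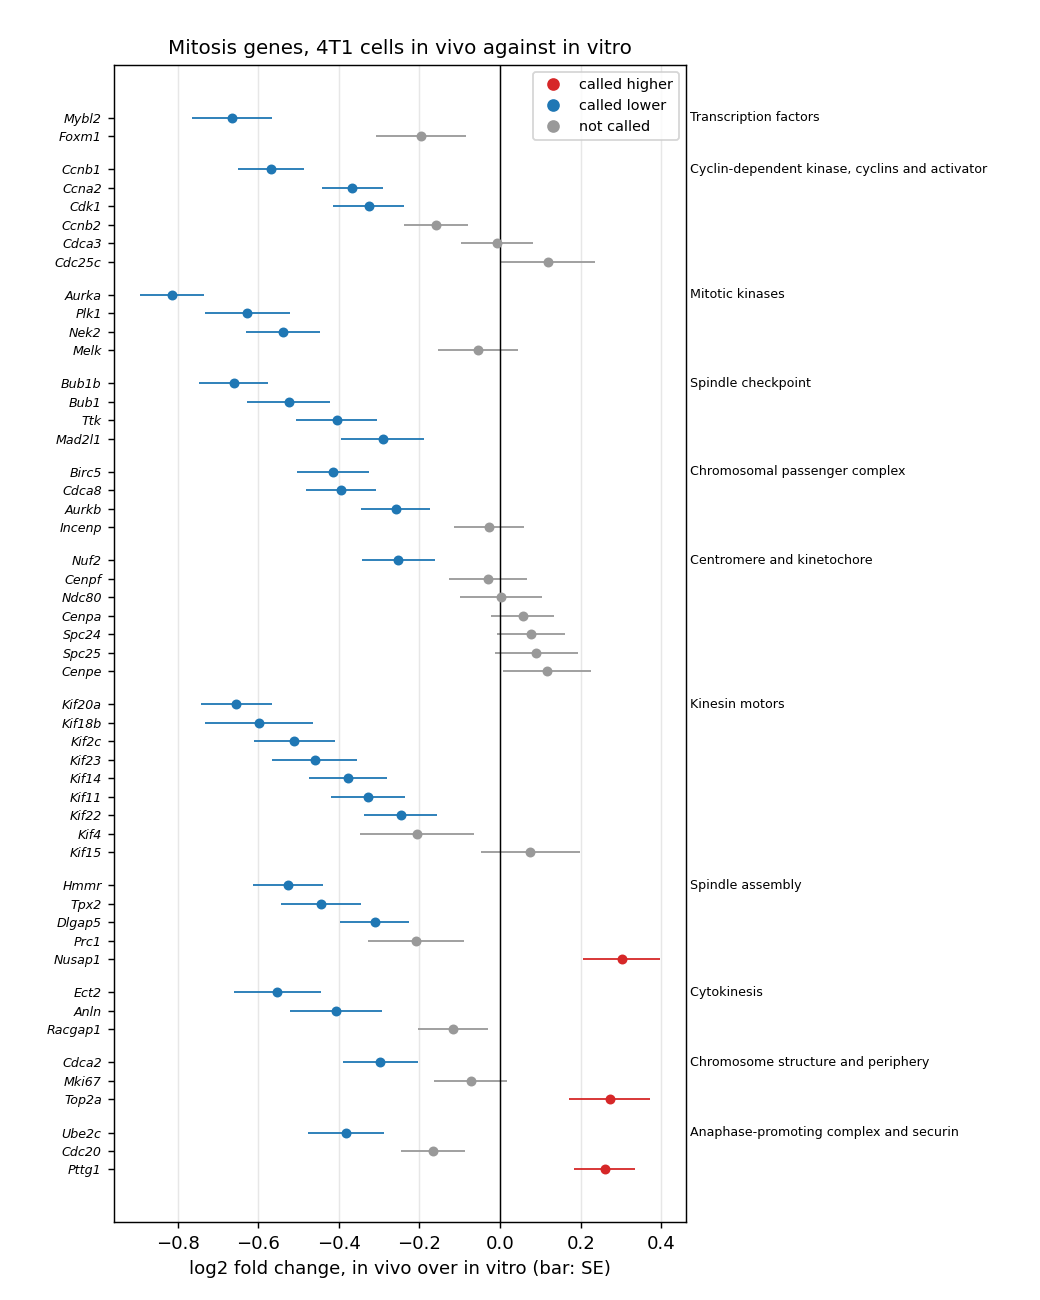
Log2 fold change of each of the 50 mitosis genes in 4T1 in vivo over in vitro (points; bars, SE; n = 3 and 3 libraries), grouped by role, with edgeR calls at an adjusted p below 0.05 in colour. The 29 falls reach -0.81 for Aurka, the 3 rises are Nusap1, Top2a and Pttg1, and the kinetochore genes lie near 0.

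The second comparison set niche against distal epithelium. All 50 genes were higher in the niche by edgeR, where 28.5% of the 17640 genes tested were higher, and all 50 had no overlap, as did 45.7% of all genes in this direction. The median log2 fold change was 2.13, against 0.02 over all genes tested, and it ran from 1.01 for Kif15 to 2.98 for Cdc25c. Each of the 50 calls stood when any of the 6 libraries was left out. Fitted folds use TMM factors of 0.841 to 0.912 for distal and 1.03 to 1.09 for niche libraries, so they are smaller than ratios of plain CPM.

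Cdk1 was measured at 10.4, 7.96 and 15.2 CPM in distal and 63.3, 65.1 and 42.2 in niche (edgeR log2 fold change 2.07, SE 0.24, adjusted p = 3.18e-05). Ccnb1 stood at 11.3, 12.6 and 20.6 and 91.3, 94.6 and 65.3 CPM (edgeR log2 fold change 2.23, SE 0.22, adjusted p = 9.69e-06), and Ccnb2, one of the largest differences, at 9.67, 12.9 and 15.2 and 112, 122 and 74.2 CPM (edgeR log2 fold change 2.76, SE 0.19, adjusted p = 7.34e-07). In these 3 genes niche replicate 3 was the lowest niche library and lay at least 2-fold above the highest distal one. Cdc25c was 7.87-fold higher, at 0.935, 1.74 and 1.01 CPM in distal and 13.9, 12.5 and 8.42 in niche (edgeR log2 fold change 2.98, SE 0.30, adjusted p = 1.15e-05).

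Foxm1 was measured at 3.25, 3.29 and 3.27 CPM in distal and 18.2, 16.7 and 14.3 in niche (edgeR log2 fold change 2.04, SE 0.24, adjusted p = 3.25e-05), and Mybl2 at 1.97, 2.2995 and 3.25 and 17.2, 12.4 and 12.5 CPM (edgeR log2 fold change 2.21, SE 0.36, adjusted p = 0.000322). Both factors of the program were thus more than 4-fold higher. Aurka stood at 4.68, 6.28 and 7.98 CPM in distal and 37.3, 40.5 and 27.7 in niche (edgeR log2 fold change 2.21, SE 0.21, adjusted p = 6.48e-06), and Plk1 at 4.83, 8.01 and 11.1 and 63.3, 59.6 and 46.4 CPM (edgeR log2 fold change 2.56, SE 0.24, adjusted p = 5.57e-06). Of the checkpoint genes Mad2l1 had one of the smallest differences, at 13.6, 13.1 and 15.3 CPM in distal and 38.4, 45.7 and 33.9 in niche (edgeR log2 fold change 1.22, SE 0.17, adjusted p = 9.55e-05).

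In the passenger complex, Birc5 (chromosome 11, 117849251 to 117855743) stood at 8.78, 8.399 and 11.8 CPM in distal and 75.8, 78.2 and 50.02 in niche (edgeR log2 fold change 2.54, SE 0.20, adjusted p = 1.59e-06), while Incenp was 2.77-fold higher (edgeR log2 fold change 1.47, SE 0.22, adjusted p = 0.000162). Cenpa (chromosome 5, 30666777 to 30674830) stood at 15.7, 17.5 and 23.7 and 134, 132 and 97.9 CPM (edgeR log2 fold change 2.40, SE 0.17, adjusted p = 9.7e-07). Ndc80 was 6.95-fold and its partner Spc24 3.03-fold higher. Among kinesins Kif20a was 7.06-fold higher, at 9.49, 10.1 and 12.4 CPM in distal and 97.5, 108 and 67.5 in niche, Kif4 6.44-fold, and Kif15, the smallest difference of the 50, 2.01-fold (edgeR log2 fold change 1.01, SE 0.26, adjusted p = 0.00703).

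Nusap1 was 3.11-fold and Prc1 3.56-fold higher, the latter at 16.1, 18.6 and 20.2 CPM in distal and 83.1, 94.6 and 58.04 in niche. Anln was measured at 11.7, 10.5 and 17.4 CPM in distal and 105, 115 and 70.7 in niche (edgeR log2 fold change 2.60, SE 0.23, adjusted p = 4.42e-06), Top2a at 22.4, 22.9 and 40.4 and 158, 160.3 and 113 CPM (edgeR log2 fold change 2.06, SE 0.28, adjusted p = 9.07e-05), and Mki67 at 15.02, 18.1 and 28.9 and 90.1, 83.03 and 71.3 CPM (edgeR log2 fold change 1.71, SE 0.24, adjusted p = 0.000107). For Top2a and Mki67 distal replicate 3 was the highest distal library and still lay below every niche library. Pttg1 stood at 12.4, 14.7 and 16.7 CPM in distal and 88.9, 95.04 and 68.3 in niche (edgeR log2 fold change 2.26, SE 0.14, adjusted p = 3.47e-07).

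The niche libraries also held transcripts of other cells. Summed over 6 macrophage markers the level was 119 to 200.5 CPM in distal, with Marco at 0, and 1744 to 2110 CPM in niche, and all 6 were higher. All 5 pan-leukocyte markers were higher (220 to 373 and 932 to 1089 CPM), as were all 5 fibroblast and mural markers (2650 to 3303 and 12628 to 14188 CPM). Of 5 T and B cell markers 4 were lower. None of the 3 neutrophil markers tested and none of the 5 endothelial markers was called. All 7 AT2, 4 of 5 AT1 (alveolar type 1), all 3 club and all 3 ciliated cell markers were lower. The part of these cells in the levels of the mitosis genes was not tested.

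RNA of 4T1 cells was estimated in each epithelial library from a panel of 43 genes. Panel genes had at least 10 CPM in each of the 6 4T1 libraries and a distal mean of at most 2% of the 4T1 in vivo mean, and none was a cell cycle gene of the lists used. Sox9 and Spp1 were among them, and whether host cells near the tumour express panel genes was not tested. For each gene the level above the distal mean was expressed as a percentage of the level in 4T1 in vivo, and the share of a library was the median over the panel. It was 19.3%, 19.4% and 11.2% in the niche libraries, 22.4%, 15.01% and 9.90% in those labelled shSox9, and -0.149%, -0.159% and 0.300% in distal. The means were 16.6% ± 4.74 in niche and 15.8% ± 6.26 under the label (SD, n = 3). The label's mean less the niche mean was -0.879 points, for which an exact two-sided permutation test gave p = 0.9. With 3 against 3 libraries such a test cannot go below 0.1. As a ratio of sums over the panel the means were 21.9% and 26.9%. Such a ratio weighs genes by their level, and Spp1 had the highest 4T1 in vivo mean of the panel. Spp1 had means of 2588 CPM in 4T1 in vivo, 1082 in niche and 1561 under the label. Hmga1b, the next by level, had 2408, 306 and 294 CPM. The ratio was not computed without Spp1.

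On the same scale, the median of the 50 mitosis genes was 27.0%, 27.1% and 17.4% of their 4T1 in vivo level in the niche libraries. This median lay above the panel's median share in each of the 3, by 7.69, 7.72 and 6.26 points. By gene, 44 of the 50 exceeded that share in 3 of 3 niche libraries, Anln alone lay below it in all 3, and 5 were mixed. These counts were not made over all genes. Lists of other cell cycle genes were kept to those with a 4T1 in vivo mean above 5 times the distal mean. In the niche libraries the 40 kept of 44 G1 and S phase genes had medians of 26.81%, 27.97% and 18.82%. The 55 kept of 60 other G2 and M phase genes had 26.67%, 27.73% and 17.97%. These medians also lay above the panel's median share, so the excess was not particular to the 50 genes. The 50 genes were not filtered in this way. The size of the gap between the 50 genes and the panel depended on how the panel was summarised. Against the ratio of sums, 26.2%, 25.2% and 14.2%, the median of the 50 lay 0.866, 1.88 and 3.20 points higher, with 25 genes above in all 3 libraries, 7 below in all 3 and 18 mixed. With the 50 genes also taken as a ratio of sums they stood at 25.9%, 26.8% and 16.8%, which is below the panel in the first library and above it in the others. Spc25 was highest, at 35.9%, 45.3% and 30.8%, followed by Cdca3 with 42.5%, 38.9% and 22.1% and Kif20a with 36.9%, 41.3% and 24.1%. Anln, the lowest, was at 14.9%, 16.5% and 9.35%, and Top2a at 17.6%, 17.8% and 11.4%. Mki67 stood at 34.1%, 30.6% and 24.9%.

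Taking the panel share of each niche library times the 4T1 in vivo mean of each gene away from its counts left 18 of the 50 genes higher and 1 lower than in distal, where 25.8% and 21.4% of 17338 genes were. The median log2 fold change was then 1.23. Kif20a had 49.9, 60.2 and 40.003 CPM left in the niche libraries, against 9.49, 10.1 and 12.4 in distal, and remained higher (edgeR log2 fold change 2.35, SE 0.22, adjusted p = 1.33e-05). Ccnb2 had 56.8, 65.9 and 42.1 CPM left (edgeR log2 fold change 2.25, SE 0.20, adjusted p = 9.6e-06), Tpx2 35.9, 40.9 and 24.5 CPM (edgeR log2 fold change 2.12, SE 0.35, adjusted p = 0.000558) and Mki67 46.7, 39.5 and 46.3 CPM (edgeR log2 fold change 1.20, SE 0.24, adjusted p = 0.00184). The other 14 were Nek2, Cdc20, Racgap1, Bub1b, Dlgap5, Hmmr, Cenpa, Cenpe, Cdca3, Cenpf, Cdca8, Pttg1, Cdc25c and Kif2c. Cdk1 had 12.5, 14.1 and 12.8 CPM left against 10.4, 7.96 and 15.2 in distal and was no longer called, and neither was Top2a, with 9.75, 11.1 and 27.2 CPM against 22.4, 22.9 and 40.4. Anln was left with 0, 0 and 0.587 CPM and became the 1 lower call. With the share from the ratio of sums, an alternative added after seeing the data, 2 genes were higher and 3 lower of the 49 tested (21% and 18.6% of all genes), with a median of 0.46. The subtraction takes 4T1 RNA in the niche libraries to have the profile of sorted 4T1 cells, which was not tested. It also takes each share as exact and sets counts below 0 to 0. The error of the share therefore does not enter these calls.

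**Figure D4:**
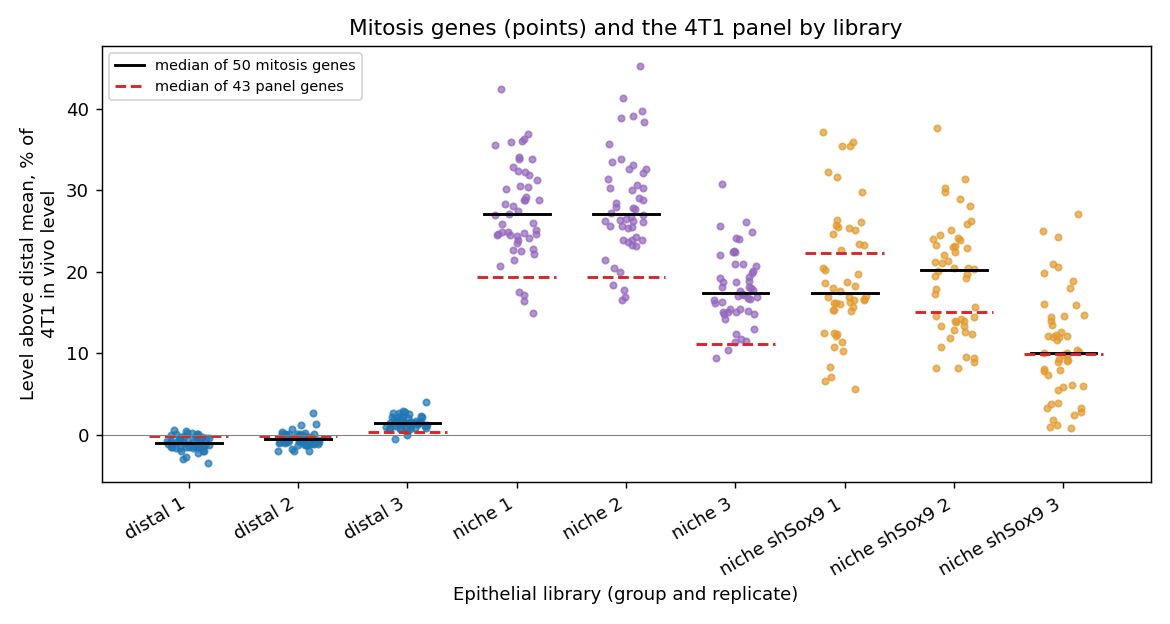
Level of each of the 50 mitosis genes (points) above the distal mean, as a percentage of the 4T1 in vivo level, in each of the 9 epithelial libraries, with the median of the 50 (black line) and of the 43 panel genes (red dashed line). In the 3 niche libraries the mitosis median (27.0%, 27.1% and 17.4%) lies above the panel (19.3%, 19.4% and 11.2%), and in libraries labelled shSox9 it lies below, above and level with it (17.3%, 20.2% and 10.0% against 22.4%, 15.01% and 9.90%). With the panel taken as a ratio of sums, which is not drawn, the mitosis median lies below the panel in all 3 of these (38.0%, 23.8% and 18.9%).

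The third comparison set the niche libraries labelled shSox9 against the niche libraries. Of the 50 genes 12 were lower and 0 higher, where edgeR called 10.8% of the 17640 genes tested lower and 9.68% higher. None was higher at an unadjusted p below 0.05 or by DESeq2 either. The median log2 fold change was -0.45, against 0.02 over all genes tested, and values ran from -1.35 for Aurkb to 0.14 for Cenpf. Libraries did not overlap for 15 of the 50, all lower under the label, against 18.1% of all genes, and 10 of these were among the 12 calls. The 12 calls included all 4 passenger complex genes, 2 of 7 kinetochore genes and 1 each of the kinases, the checkpoint, the kinesins, the spindle assembly genes, the chromosome structure genes and the group of Cdk1 and its cyclins.

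Aurkb (chromosome 11, 69045647 to 69051664), the kinase of the passenger complex, was measured at 43.1, 43.1 and 31.4 CPM in niche and 16.02, 21.5 and 8.92 CPM under the label. No value under the label reached the lowest niche library, and Aurkb was 2.55-fold lower (edgeR log2 fold change -1.35, SE 0.27, adjusted p = 0.00492). Its scaffold Incenp stood at 46.9, 41.6 and 33.1 and 25.2, 25.1 and 12.9 CPM (edgeR log2 fold change -0.96, SE 0.21, adjusted p = 0.00846), and Cdca8 at 63.2, 63.2 and 45.2 and 38.5, 42.01 and 25.9 CPM (edgeR log2 fold change -0.70, SE 0.18, adjusted p = 0.0205), both without overlap. Birc5 was measured at 75.8, 78.2 and 50.02 CPM in niche and 54.1, 46.6 and 35.9 CPM under the label, where the groups overlapped (edgeR log2 fold change -0.59, SE 0.18, adjusted p = 0.0393).

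Cdk1 was 2.103-fold lower, at 63.3, 65.1 and 42.2 CPM in niche and 29.03, 31.6 and 20.9 CPM under the label (edgeR log2 fold change -1.07, SE 0.23, adjusted p = 0.00741), with no overlap. Its cyclins were not called. Ccnb1 stood at 91.3, 94.6 and 65.3 and 72.1, 80.5 and 55.1 CPM (edgeR log2 fold change -0.28, SE 0.21, adjusted p = 0.372), Ccnb2 at 112, 122 and 74.2 and 115, 98.8 and 87.2 CPM (edgeR log2 fold change -0.044, SE 0.17, adjusted p = 0.889), and Ccna2 had -0.59 (SE 0.25, edgeR adjusted p = 0.125). The difference between Cdk1 and its cyclins was itself not tested.

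Of the kinases Melk was 2.03-fold lower (edgeR log2 fold change -1.02, SE 0.27, adjusted p = 0.0195), at 17.4, 18.2 and 12.6 CPM in niche and 9.75, 8.86 and 5.33 CPM under the label. Plk1 stood at 63.3, 59.6 and 46.4 CPM in niche and 45.6, 44.7 and 32.7 CPM under the label (edgeR log2 fold change -0.47, SE 0.21, adjusted p = 0.149), with no overlap and no call. Aurka stood at 37.3, 40.5 and 27.7 and 32.5, 31.2 and 21.9 CPM (edgeR log2 fold change -0.31, SE 0.19, adjusted p = 0.279), with overlap, and Nek2 had -0.20 (SE 0.19). At the kinetochore Spc24 was 1.87-fold lower (edgeR log2 fold change -0.90, SE 0.22, adjusted p = 0.0131) and its direct partner Spc25 1.58-fold lower (edgeR log2 fold change -0.66, SE 0.19, adjusted p = 0.0335). Cenpe (0.034, SE 0.24) and Cenpf (0.14, SE 0.22), both large proteins of the outer kinetochore, were not called and had the highest values of the 50. Cenpa stood at 134, 132 and 97.9 and 102, 102 and 73.5 CPM, with overlap (edgeR log2 fold change -0.40, SE 0.16, adjusted p = 0.105).

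Nusap1, Bub1 and Kif14 were 1.79-fold, 1.77-fold and 1.66-fold lower. Top2a was measured at 158, 160.3 and 113 CPM in niche and 109, 88.997 and 49.2 CPM under the label (edgeR log2 fold change -0.82, SE 0.27, adjusted p = 0.0489), without overlap, since replicate 1 under the label lay just below niche replicate 3. Mki67 stood at 90.1, 83.03 and 71.3 and 86.4, 68.1 and 45.4 CPM, with overlap and no call (edgeR log2 fold change -0.31, SE 0.23, adjusted p = 0.374). Both transcription factors had negative values that missed the threshold. Mybl2 was at 17.2, 12.4 and 12.5 CPM in niche and 11.4, 7.997 and 3.53 CPM under the label (edgeR log2 fold change -0.90, SE 0.33, adjusted p = 0.0782), and Foxm1 at 18.2, 16.7 and 14.3 and 11.9, 15.2 and 7.39 CPM (edgeR log2 fold change -0.52, SE 0.22, adjusted p = 0.122). The scaffold of the contractile ring was near 0, with Anln at 105, 115 and 70.7 CPM in niche and 112, 99.2 and 68.9 CPM under the label (edgeR log2 fold change -0.063, SE 0.21, adjusted p = 0.869). So was Kif20a, at 97.5, 108 and 67.5 and 94.3, 99.3 and 67.8 CPM (edgeR log2 fold change -0.070, SE 0.17, adjusted p = 0.815). Both groups overlapped for these genes, as they did for Cdc20 (-0.087, SE 0.15), Cdc25c (-0.11, SE 0.25) and Ect2 (-0.14, SE 0.18). Mad2l1 stood at 38.4, 45.7 and 33.9 and 28.6, 35.4 and 22.8 CPM, with overlap and no call (edgeR log2 fold change -0.45, SE 0.16, adjusted p = 0.0699). Prc1 was measured at 83.1, 94.6 and 58.04 CPM in niche and 51.2, 70.6 and 24.8 CPM under the label, likewise with overlap (edgeR log2 fold change -0.70, SE 0.28, adjusted p = 0.11).

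Aurkb and Incenp kept their calls whichever of the 6 libraries was left out, and so did Cdk1. The number of calls was 4 without niche replicate 1 (Aurkb, Cdk1, Incenp and Spc24), 3 without niche replicate 2 (Aurkb, Cdk1 and Incenp) and 4 without replicate 3 under the label (Aurkb, Cdk1, Incenp and Spc24). Without replicate 1 under the label Nusap1 and Spc25 lost their calls, and without replicate 2 under the label Birc5, Kif14 and Top2a did. Same-numbered libraries of these groups deviated together, and with the replicate number as a block 11 genes were lower. Top2a (edgeR adjusted p = 0.0682) and Kif14 (0.0602) then lost their calls and Prc1 gained one (log2 fold change -0.75, SE 0.23, adjusted p = 0.0498).

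Markers of other cells differed between these groups too. All 5 pan-leukocyte markers and 5 of 6 macrophage markers were lower under the label, with summed levels of 932 to 1089 against 115 to 392 CPM and 1744 to 2110 against 86.8 to 544 CPM. All 7 AT2 markers and 2 of 5 AT1 markers were higher. Of the fibroblast and mural markers 1 of 5 was higher, at sums of 12628 to 14188 and 10464 to 16560 CPM, and 2 of 5 endothelial markers were lower. The part of these cells in the 12 lower mitosis genes was not tested.

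Relative to 4T1 in vivo, the 50 genes had a median of 17.3%, 20.2% and 10.0% in the libraries labelled shSox9, where the panel stood at 22.4%, 15.01% and 9.90%. Above this median share in all 3 libraries were 16 genes, 17 lay below it in all 3, and 17 were mixed. No such count was made over all genes. Of 44 G1 and S phase genes, the 40 with a 4T1 in vivo mean above 5 times the distal mean had medians of 16.7%, 10.8% and 5.21% in these libraries. The 55 of 60 other G2 and M phase genes kept by this filter had 19.6%, 17.7% and 9.34%. The 50 genes were not filtered in this way. Whether the median of the 50 lay above or below the panel depended on how the panel was summarised. By the ratio of sums, in which Spp1 had the highest 4T1 in vivo level, the panel stood at 38.0%, 23.8% and 18.9%. The median of the 50 was then below the panel in all 3 libraries, with 0 genes above in all 3, 36 below in all 3 and 14 mixed. Kif20a was highest at 35.5%, 37.6% and 24.3%, and Ccnb2 followed with 37.1%, 31.4% and 27.1%. Aurkb, the lowest, stood at 6.54%, 10.7% and 1.19%, against 27.0%, 27.0% and 18.1% in niche. Cdk1 was at 7.09%, 8.12% and 3.85%, against 20.7%, 21.4% and 12.3% in niche. After subtraction of the panel share 13 of the 50 were lower and 1, Anln, higher than in niche, where 13.4% and 11.2% of all genes were. Cdk1 and Top2a then had 0 CPM left in each library under the label, against 12.5, 14.1 and 12.8 and 9.75, 11.1 and 27.2 CPM in niche. With the ratio of sums 27 of 49 were lower and 0 higher, against 13.4% and 11.7% of all genes. The error of the share does not enter these calls either.

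**Figure D5:**
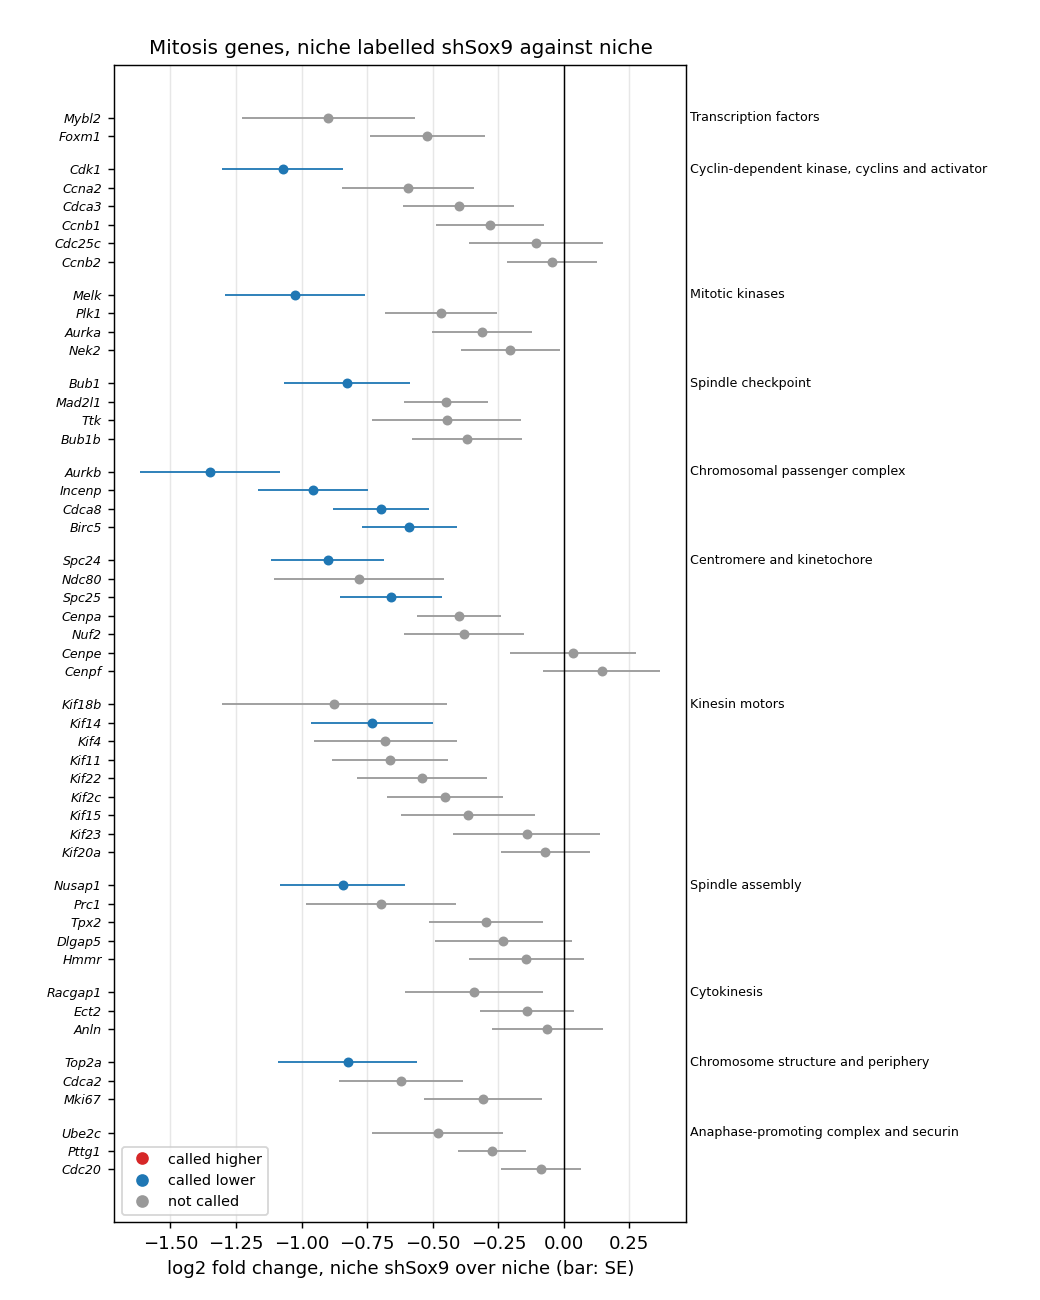
Log2 fold change of each of the 50 mitosis genes in niche libraries labelled shSox9 over niche libraries (points; bars, SE; n = 3 and 3 libraries), grouped by role, with edgeR calls at an adjusted p below 0.05 in colour. The 12 lower genes include all 4 of the passenger complex and Cdk1 at -1.07, whereas Ccnb2, Anln, Kif20a, Cenpe and Cenpf lie near 0.

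Against distal epithelium, whose libraries also served the second comparison, 48 of the 50 genes were higher in the libraries labelled shSox9, where 21.7% of the 17640 genes tested were higher. None of the 50 was lower by edgeR, at an unadjusted p below 0.05 or by DESeq2, where 22% of all genes were lower. The median log2 fold change was 1.65, against -0.0047 over all genes, with 47 of the 48 free of overlap (40.6% of all genes). Cdc25c (2.87, SE 0.30), Cenpf (2.79, SE 0.25), Kif20a (2.75, SE 0.19), Ccnb2 (2.72, SE 0.19) and Anln (2.54, SE 0.23) had the largest differences. Cdk1 was 1.99-fold higher (edgeR log2 fold change 1.00, SE 0.24, adjusted p = 0.00568), Mki67 2.64-fold (edgeR log2 fold change 1.40, SE 0.24, adjusted p = 0.000597) and Top2a 2.36-fold (edgeR log2 fold change 1.24, SE 0.27, adjusted p = 0.00359). Incenp (edgeR log2 fold change 0.52, SE 0.22, adjusted p = 0.0729) and Kif15 (edgeR log2 fold change 0.64, SE 0.26, adjusted p = 0.069) were not called, and the smallest calls were Spc24 (0.70, SE 0.22), Mad2l1 (0.77, SE 0.17) and Aurkb (0.79, SE 0.28). Aurkb, the only one of the 48 whose groups overlapped, lost its call without distal replicate 1 or 2 or replicate 1 or 2 under the label. The count was 44, 43 and 48 without distal replicates 1, 2 and 3, and 47, 44 and 50 without replicates 1, 2 and 3 under the label. After subtraction of the panel share 12 genes were higher and 7 lower (17.1% and 18.1% of all genes), with a median of 0.07. By the ratio of sums 0 were higher and 29 lower (16.1% and 17.8%). Counts below 0 were set to 0 and the share was taken as exact. A share set too high would also give lower calls, so these do not establish levels below distal epithelium.

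Other genes of the cell cycle were followed as lists. Of 60 further G2 and M phase genes 7 rose and 25 fell in 4T1 in vivo, where 27% of all genes tested were higher and 24% lower. They were led by Haspin, a kinase of histone H3, at -0.72 (SE 0.10), Espl1, separase, at -0.70 (SE 0.17), and Cenpm, a centromere protein, at 0.67 (SE 0.10). In niche against distal 58 were higher and 1 lower (28.5% and 25.8% of all genes). Under the shSox9 label 10 of 60 were lower than in niche (10.8% of all genes), led by Fbxo5, an inhibitor of the anaphase-promoting complex, at -1.54 (SE 0.29). Of 44 G1 and S phase genes 43 were higher in niche than distal (28.5% of all genes), with a median of 1.69. Under the label 29 of them were lower than in niche (10.8% of all genes), with a median of -0.77 over the list. Ccne1, cyclin E1, had -1.46 (SE 0.20), Gins1, a subunit of the replicative helicase, -1.20 (SE 0.21) and Mcm10, a replication initiation factor, -1.20 (SE 0.27). The core subunits of the anaphase-promoting complex and its partners had a median of 0.26 in niche against distal. There 9 of 16 were higher and 1 lower (28.5% and 25.8% of all genes). Under the label against niche their median was 0.07, with 0 higher and 1 lower (9.68% and 10.8% of all genes). For the genes named in this paragraph the edgeR adjusted p was at most 0.00954.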

How the data were processed

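RNA of 15 mouse samples was sequenced. The deposited tables hold, per gene, expected counts and TPM, estimated by the authors with RSEM on GRCm38, per the submitters' processing notes, which also name DESeq2. Aligner, annotation and strand setting were not given in the sources used here. Deposited FPKM were not used. Groups came from the titles, and gene IDs were matched to symbols by GENCODE annotation of GRCm38.

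Expected counts were rounded. Each comparison used edgeR 4.0.16 in R 4.3.3 (TMM scaling, filterByExpr, quasi-likelihood F-test, Benjamini-Hochberg over all genes tested, threshold 0.05), with 1 fit for the 6 4T1 libraries and 1 for the 9 epithelial libraries, tested on simulated data. The SE is the absolute log2 fold change over the square root of F. CPM are plain, with no TMM factor. Alternatives were RLE scaling, DESeq2 1.42.0, no filter, limma 3.58.1 on log2(TPM + 0.5), other sets of libraries in the fit, each library left out, a replicate block and subtraction of 4T1 RNA. Replicate pairs of a group differed by more than sampling noise (chi-square per degree of freedom 8.27 to 43.4).

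Same-numbered libraries deviated together for shSox9 against niche (correlations of deviations 0.166, 0.119 and 0.141), with the letters A to C of the titles taken as 1 to 3, so blocked values are given there where a call changed. The first distal library is titled R1 rather than A and was taken as replicate 1. The 50 genes, 6 further lists and marker lists were chosen with earlier results of these data known. Named were the gene of highest TPM in each of 11 roles, 8 anchor genes (Mki67, Top2a, Cdk1, Ccnb1, Aurka, Plk1, Foxm1 and Mybl2), the 5 highest and 5 lowest fold changes of each comparison, the 3 largest called genes of each other list, and the 5 genes most like the members. Other genes among the 50 were named to account for each role. Total counts were 15907316 to 30421705 per library, and limits from 3 counts cover counting error only.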

Additional observations from a re-analysis of the deposited data

How the results depend on the processing

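Counts of mitosis genes called in niche against distal were 50 higher and 0 lower under every alternative run other than the subtraction of 4T1 RNA. With all 15 libraries in a single fit the 4T1 comparison gave 13 falls and 0 rises, with limma on log2(TPM + 0.5) 17 falls, and with no filter on low counts 0 rises. Leaving out 1 library at a time gave 0 to 2 rises there. For the libraries labelled shSox9 against niche the number lower was 7 with limma on TPM, 23 with no filter and 3 to 13 with a library left out. Adding the replicate number as a block gave 3 rises and 29 falls in 4T1, 50 higher in niche against distal, and 47 higher under the label against distal, where Aurkb lost its call (adjusted p = 0.0638). The replicate block changed no other call in these 3 comparisons, whose same-numbered libraries correlated between -0.0614 and 0.105. TPM moved the median of all genes to 0.53 in niche and 0.50 under the label, both against distal. The cause of these shifts was not tested.

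Subtraction of the 4T1 share gave 18 higher and 1 lower in niche against distal, 12 and 7 under the label against distal, and 1 higher under the label against niche. By the ratio of sums, whose use in the subtraction and beside the 50 genes was chosen after seeing the data and which gave shares of 21.9% in niche and 26.9% under the label, these were 2 and 3, 0 and 29, and 27 lower under the label against niche. The sign of the fitted difference turned with the median share in 5 of 50 genes in niche against distal (1 called lower), in 1 under the label against niche and in 25 under the label against distal (7 called lower). With the ratio of sums it turned in 16, 2 and 45 of 49 (3, 0 and 29 called lower). Of these, the genes named by the rule for each comparison had log2 fold changes, with the median share, of Top2a -0.76, Anln -6.23 and Kif15 -0.048 in niche against distal, Anln 4.49 under the label against niche, and Birc5 -1.09, Cdk1 -10.65, Top2a -11.99, Anln -1.74, Prc1 -0.90, Plk1 -0.054, Mad2l1 -0.084, Mybl2 -8.49, Incenp -2.00, Kif15 -1.05, Spc24 -1.88 and Aurkb -5.17 under the label against distal. With the ratio of sums they were Birc5 -0.20, Cdk1 -2.74, Top2a -4.47, Anln -10.76, Mybl2 -0.41, Ccnb1 -0.91, Aurka -0.0026, Kif15 -1.05 and Nusap1 -0.16 in niche against distal, Cenpe -1.51 and Cenpf -0.73 under the label against niche, and Cenpa -6.09, Birc5 -10.31, Cdk1 -10.53, Top2a -11.87, Anln -10.76, Prc1 -3.86, Plk1 -10.03, Mad2l1 -1.32, Mybl2 -8.37, Mki67 -1.49, Ccnb1 -10.92, Aurka -9.69, Foxm1 -1.26, Incenp -10.63, Kif15 -9.98, Spc24 -10.49, Aurkb -9.92, Cenpf -0.028 and Cdc25c -1.01 under the label against distal. Anln, with its counts set to 0 in both groups, had 0 under the label against niche, which is not a turn of sign. Large negative values come from counts set to 0 and depend on the prior count.

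Other turns of sign were of values near 0. They were Cenpa -0.072 and Prc1 0.073 in 4T1 with limma on TPM. With a library left out Cenpe ran from -0.0090 to 0.19 in 4T1, negative without in vitro replicate 3. Under the label against niche Anln ran from -0.23 to 0.087, Ccnb2 from -0.22 to 0.094, Kif20a from -0.23 to 0.071, Cenpe from -0.17 to 0.18 and Cenpf from -0.029 to 0.28. At these depths each of the 50 genes had counts in every library, and p-values rest on 3 libraries a group.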

Other observations

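Lists around the mitotic program were followed by the same edgeR fits, with log2 fold changes of the 3 called genes of largest size. Among 13 inhibitors of cyclin-dependent kinases and other brakes tested in 4T1, 7 rose and 2 fell in vivo (27% and 24% of all genes tested), led by Btg2 (4.11, SE 0.24), an antiproliferative gene, Gadd45a (1.59, SE 0.20) and Gadd45g (1.36, SE 0.09), both stress-induced. Of 15 tested in epithelium 5 were higher and 3 lower in niche than distal (28.5% and 25.8% of all genes), led by Cdkn1c (-2.29, SE 0.28), which encodes the inhibitor p57, Cdkn2b (-1.10, SE 0.21), which encodes p15, and Pkmyt1 (0.99, SE 0.22), a kinase that holds Cdk1 inactive. Under the shSox9 label 5 were higher and 1 lower than in niche (9.68% and 10.8% of all genes), led by Gadd45a (1.24, SE 0.16), Cdkn1c (1.16, SE 0.28) and Btg2 (0.87, SE 0.19).

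Of 17 DREAM and retinoblastoma family genes 4 rose and 5 fell in 4T1 in vivo, near the 27% and 24% of all genes tested, led by Mybl1 (1.86, SE 0.16), Rb1 (0.83, SE 0.16) and Tfdp1 (-0.60, SE 0.08). In niche against distal 11 were higher and 3 lower (28.5% and 25.8% of all genes), led by the repressors E2f7 (3.15, SE 0.46) and E2f8 (2.79, SE 0.28) and by Mybl1 (2.55, SE 0.42). Under the label 1 was higher and 2 lower than in niche (9.68% and 10.8% of all genes): Tfdp2 (0.52, SE 0.17), Rbl1 (-1.08, SE 0.13), which encodes p107, and Rbbp4 (-0.36, SE 0.10). Of the cell cycle entry genes 2 of 7 rose and 4 fell in vivo (27% and 24% of all genes tested), with Ccnd2 (-1.64, SE 0.09), Myc (-0.63, SE 0.09) and Cdk6 (0.54, SE 0.10). In niche against distal 6 of 8 were higher and 1 lower (28.5% and 25.8% of all genes), with Myc (2.06, SE 0.16), Ccnd1 (1.72, SE 0.22) and Cdk6 (1.70, SE 0.16). Under the label against niche 0 were higher and 1 lower (9.68% and 10.8% of all genes), Ccnd2 (-0.51, SE 0.11).

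The remaining named genes were as follows. Of 44 G1 and S phase genes 7 rose and 15 fell in 4T1 in vivo (27% and 24% of all genes tested), with Gins2 (0.82, SE 0.09), Rfc3 (0.79, SE 0.09) and Exo1 (-0.64, SE 0.09) the largest, and Exo1 (2.59, SE 0.35), Ccne1 (2.37, SE 0.21) and Mcm10 (2.35, SE 0.29) led in niche against distal. Among 16 core subunits of the anaphase-promoting complex and its partners 1 rose and 2 fell in vivo (27% and 24% of all genes tested), Anapc13 (0.68, SE 0.16), Anapc1 (-0.65, SE 0.15) and Cdc23 (-0.38, SE 0.08). In niche Anapc15 (1.12, SE 0.20), Ube2s (0.76, SE 0.11) and Anapc10 (0.68, SE 0.15) led, and under the label Anapc15 (-0.60, SE 0.19) was the 1 called. Among other G2 and M phase genes Parpbp (4.17, SE 0.36), Pimreg (2.90, SE 0.17) and Cenph (2.73, SE 0.27) led in niche, and Haspin (-1.41, SE 0.25) and Stil (-0.98, SE 0.26) followed Fbxo5 under the label. The edgeR adjusted p of each gene named here was below 0.05.

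Over the 15 libraries, the genes whose log2(CPM + 0.5) followed the mean of the 50 most closely among 11818 at 5 CPM or more were Tacc3 (Pearson's r 0.999), Rad18 (0.998), Rin1 (0.997), Ncapg (0.997) and Troap (0.997). The 50 genes themselves had r of 0.970 to 0.998. The points are libraries of 5 groups that differ widely in level, so r mainly orders the groups.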
